A study of Mus musculus with 12 samples.

Results

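The genes described here are 10 genes of ovarian stroma, namely the small leucine-rich proteoglycan genes Dcn, Lum, Ogn and Bgn, the matrix glycoprotein genes Fbn1, Fn1, Mgp and Sparc, and the platelet-derived growth factor receptor genes Pdgfra and Pdgfrb. They were chosen by name, and every probe of the array annotated to one of them was taken. Of the 10, 9 had at least 1 probe, 21 probes in all, out of 19057 genes with a symbol on the array. Fbn1, which encodes fibrillin-1, had no probe under that symbol in the annotation used and was not analysed here. Of the 21 probes, 18 were bright enough to test, and 17 of these were detected on all 12 arrays.

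Whole ovaries of FVB/N female mice at 14 dpn were profiled on 12 Illumina bead arrays in 4 groups of 3. The groups were NoTg Foxo3+/- (no transgene, 1 functional Foxo3 allele), Tg Foxo3+/- (transgene, heterozygous), NoTg Foxo3-/- (no transgene, Foxo3 null) and Tg Foxo3-/- (transgene, null). All 4 groups lack at least 1 Foxo3 allele, so no group is wild type. The series title names a constitutively active Foxo3 in oocytes; the labels give neither the promoter that drives the transgene nor the number of transgenic lines. They also do not say that samples are separate animals.

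FOXO3 is a forkhead transcription factor that in the mouse oocyte keeps primordial follicles at rest. The stroma between follicles is made of fibroblast-like and theca precursor cells that secrete collagen and proteoglycans. Small leucine-rich proteoglycans bind collagen fibrils and shape their spacing, and decorin and biglycan also bind growth factors of the TGF-beta family. PDGF receptor alpha marks mesenchymal cells, and PDGF receptor beta marks pericytes and other perivascular cells.

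All 10 oocyte markers and all 8 matched granulosa markers passed the detection filter, so the defining cells of the labelled tissue were present. The 1 Foxo3 probe bright enough to test ranged from 7.81 to 8.65 on the log2 scale and was not lower in the null groups (averaged difference 0.35, limma adjusted p = 0.0816). Whether it lies in the deleted stretch is not stated, so that it cannot check the genotype labels. Between 20072 and 22015 probes were detected per array. Array background, taken as the median raw intensity of probes with a detection p-value above 0.5, was 76.3 to 79.8 in NoTg Foxo3+/-, 79.9 to 81.2 in NoTg Foxo3-/-, 65.4 to 67 in Tg Foxo3+/- and 68.5 to 74.2 in Tg Foxo3-/- arrays. It was thus higher in every null array than in every heterozygous array of the same transgene state, and lower in every transgenic array. It moves with both factors of the design, and its part in the results below is shown only by the values given with it as a covariate.

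The first question is whether these genes differ between Foxo3-/- and Foxo3+/- ovaries. Dcn, Lum, Ogn and Pdgfra were lower in the null ovaries, by 1.35-fold to 1.43-fold averaged over both transgene states. Bgn, Mgp, Sparc and Pdgfrb differed by at most 0.10 on the log2 scale, and none of them passed the test. Fn1 was the only one of the 9 genes whose difference averaged over transgene states lay above 0 (0.40), without passing. Values below are log2 intensities after background correction and quantile normalization, a gene with several probes is represented by its brightest, and a gene is said to have fallen where limma's adjusted p over all 22511 tested probes was under 0.05. A log2 level of 1 probe is not compared with that of another. In whole ovaries, fewer stromal cells and less RNA per cell cannot be told apart.

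**Figure D1:**
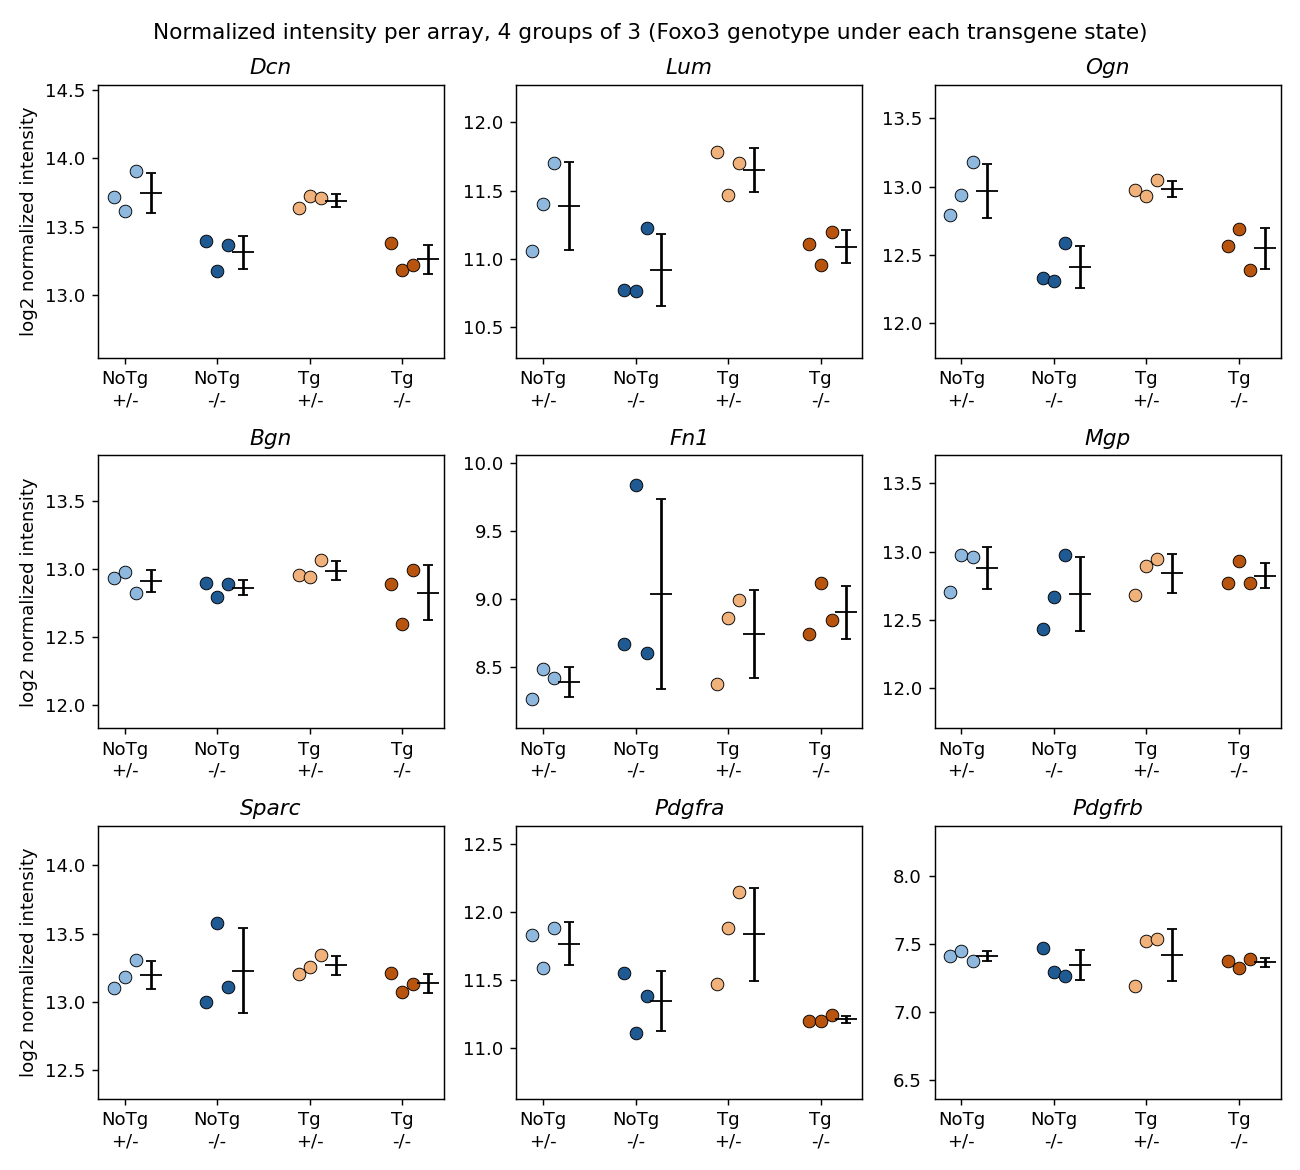
Log2 normalized intensity of the 9 genes on each of 12 arrays (points), with the mean and SD of each group of 3 (cross and bar); every panel spans the same range of 2 log2 units. For Dcn and Ogn all 6 Foxo3-/- arrays lie below all 6 Foxo3+/- arrays, whereas for Bgn, Mgp, Sparc and Pdgfrb the genotypes overlap.

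Dcn encodes decorin, the most widely studied proteoglycan of this family, which decorates collagen fibrils. Its log2 intensity was 13.72, 13.61 and 13.91 in NoTg Foxo3+/- and 13.40, 13.17 and 13.37 in NoTg Foxo3-/- ovaries. With the transgene it was 13.64, 13.72 and 13.71 in Foxo3+/- and 13.38, 13.19 and 13.22 in Foxo3-/- ovaries. Every null array was below every heterozygous array, in each transgene state and over all 12 arrays. Dcn fell by 0.43 ± 0.10 (SE) on the log2 scale without the transgene (limma adjusted p = 0.0486) and by 0.43 ± 0.10 with it (adjusted p = 0.0331). Averaged over transgene states it was 1.35-fold lower (log2 -0.43, 95% confidence interval -0.58 to -0.28, adjusted p = 0.00140).

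Ogn encodes osteoglycin, also called mimecan, another member of the family. It measured 12.79, 12.94 and 13.18 in NoTg Foxo3+/- against 12.33, 12.31 and 12.59 in NoTg Foxo3-/- ovaries. With the transgene the values were 12.97, 12.93 and 13.05 in Foxo3+/- against 12.56, 12.69 and 12.39 in Foxo3-/- ovaries. As for Dcn, the 6 null arrays all lay below the 6 heterozygous arrays. Ogn fell by 0.56 ± 0.12 without the transgene (adjusted p = 0.0318) and stood at -0.44 ± 0.12 with it (adjusted p = 0.0596). Averaged, it was 1.41-fold lower (log2 -0.50, interval -0.67 to -0.33, adjusted p = 0.00158).

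Lum encodes lumican, a keratan sulphate proteoglycan that regulates collagen fibril assembly. It measured 11.06, 11.41 and 11.70 in NoTg Foxo3+/- and 10.77, 10.77 and 11.23 in NoTg Foxo3-/- ovaries, where the highest null array exceeded the lowest heterozygous one. The null array was the lower at each of the 3 replicate numbers, which the labels do not say mark pairs. With the transgene it measured 11.78, 11.47 and 11.71 in Foxo3+/- and 11.11, 10.96 and 11.20 in Foxo3-/- ovaries, with no overlap. The differences were -0.47 ± 0.16 (adjusted p = 0.171) and -0.56 ± 0.16 (adjusted p = 0.0715), neither of which passed. Averaged over transgene states Lum fell, being 1.43-fold lower (log2 -0.52, interval -0.75 to -0.28, adjusted p = 0.00914).

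Pdgfra encodes the alpha receptor for platelet-derived growth factor, a receptor tyrosine kinase of mesenchymal cells. It measured 11.83, 11.59 and 11.88 in NoTg Foxo3+/- and 11.55, 11.11 and 11.38 in NoTg Foxo3-/- ovaries. In transgenic ovaries it measured 11.47, 11.88 and 12.15 in Foxo3+/- and 11.20, 11.20 and 11.24 in Foxo3-/- samples. The genotypes did not overlap within either transgene state, and the spread of the Tg Foxo3+/- group (SD 0.34, n = 3) was far wider than that of the Tg Foxo3-/- group (SD 0.03, n = 3). Pdgfra stood at -0.42 ± 0.15 without the transgene (adjusted p = 0.201) and fell by 0.62 ± 0.15 with it (adjusted p = 0.0407). Averaged, it was 1.43-fold lower (log2 -0.52, interval -0.74 to -0.30, adjusted p = 0.00652).

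The remaining proteoglycan, Bgn, encodes biglycan, the closest relative of decorin in the family. It averaged 12.91 ± 0.08 (SD, n = 3) in NoTg Foxo3+/-, 12.87 ± 0.06 in NoTg Foxo3-/-, 12.99 ± 0.07 in Tg Foxo3+/- and 12.83 ± 0.20 in Tg Foxo3-/- ovaries, and the genotypes overlapped in both transgene states. The averaged difference was -0.10 (interval -0.26 to 0.05, adjusted p = 0.422).

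Among the matrix glycoproteins, Sparc encodes osteonectin, a collagen-binding protein that modulates cell contact with matrix. Its brightest probe measured 13.10, 13.19 and 13.31 in NoTg Foxo3+/- and 13.00, 13.58 and 13.11 in NoTg Foxo3-/- ovaries, the value of NoTg Foxo3-/- replicate 2 being the highest of the 12. With the transgene it measured 13.20, 13.26 and 13.34 in Foxo3+/- and 13.21, 13.07 and 13.13 in Foxo3-/- ovaries. The averaged difference was -0.05 (interval -0.23 to 0.13, adjusted p = 0.778), and its sign turned under median scaling (0.03) and with the authors' normalized values (0.01). Mgp encodes matrix Gla protein, an inhibitor of calcification. It averaged 12.88 ± 0.15 in NoTg Foxo3+/-, 12.69 ± 0.27 in NoTg Foxo3-/-, 12.84 ± 0.14 in Tg Foxo3+/- and 12.82 ± 0.09 in Tg Foxo3-/- ovaries (SD, n = 3 each), with overlap throughout (averaged difference -0.10, interval -0.29 to 0.09, adjusted p = 0.535).

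Fn1 encodes fibronectin, the glycoprotein that links matrix to integrins, and granulosa cells express it as well as stroma. It measured 8.27, 8.49 and 8.43 in NoTg Foxo3+/- and 8.67, 9.84 and 8.60 in NoTg Foxo3-/- ovaries, so that every null array was above every heterozygous one. With the transgene it measured 8.38, 8.86 and 8.99 in Foxo3+/- and 8.75, 9.12 and 8.85 in Foxo3-/- ovaries, which overlapped. The difference was 0.65 ± 0.25 without the transgene (adjusted p = 0.234) and 0.16 ± 0.25 with it (adjusted p = 0.805). Separation of this kind, null above heterozygous, was seen for 9.18% of all tested genes. The difference without the transgene was 0.25 when NoTg Foxo3-/- replicate 2 was left out (adjusted p = 0.638).

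Pdgfrb encodes the beta receptor. It averaged 7.41 ± 0.03 in NoTg Foxo3+/-, 7.35 ± 0.11 in NoTg Foxo3-/-, 7.42 ± 0.19 in Tg Foxo3+/- and 7.37 ± 0.03 in Tg Foxo3-/- ovaries (SD, n = 3 each). The genotypes overlapped in both transgene states, and the averaged difference was -0.06 (interval -0.27 to 0.15, adjusted p = 0.763). The alpha and beta receptor genes thus gave averaged differences of -0.52 and -0.06, a contrast that was not tested as such.

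In counts, 4 of the 9 genes fell and 0 rose averaged over transgene states, where 5.5% of the 12173 tested genes fell and 4.48% rose. Without the transgene 2 of 9 fell (Dcn and Ogn), against a background of 0.698% of genes, and with it 2 of 9 fell (Dcn and Pdgfra), against 0.887%. The median difference of the 9 genes was -0.19 without the transgene, -0.16 with it and -0.10 averaged, beside medians of -0.01 over all tested genes in each of these comparisons. Groups did not overlap, null below heterozygous, for 3 of 9 genes without the transgene, 4 of 9 with it and 2 of 9 over all 12 arrays, where 10.4%, 13.9% and 2.46% of all tested genes did so. The genes were chosen with earlier results of these data known, so these counts describe them and are no test of the list.

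**Figure D2:**
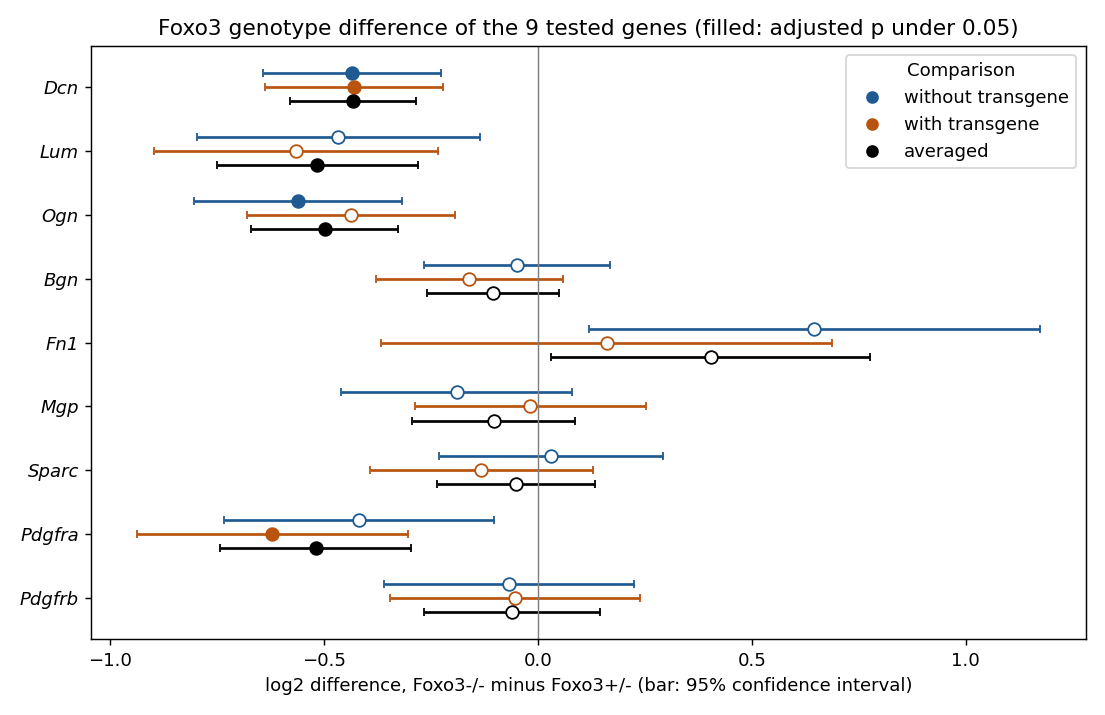
Log2 difference between Foxo3-/- and Foxo3+/- ovaries for each of the 9 genes without the transgene, with it and averaged (points; bars are 95% confidence intervals; filled points have an adjusted p under 0.05). Averaged intervals of Dcn, Lum, Ogn and Pdgfra lie below 0, those of Bgn, Mgp, Sparc and Pdgfrb include 0, and that of Fn1 runs from 0.03 to 0.78.

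Leaving out any of the 12 arrays left 4 of the 9 genes fallen in the averaged comparison. Median scaling and array background as a covariate each left 0, with Dcn at -0.36 (adjusted p = 0.108) and -0.49 (adjusted p = 0.0511). The same 4 genes kept differences from -0.61 to -0.36 over the 20 other settings. Calls within 1 transgene state were less stable. The call of Dcn without the transgene was lost in 17 of 22 settings and that of Ogn in 10 of 22, and with the transgene the calls of Dcn and Pdgfra were each lost in 9 of 21.

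**Figure D3:**
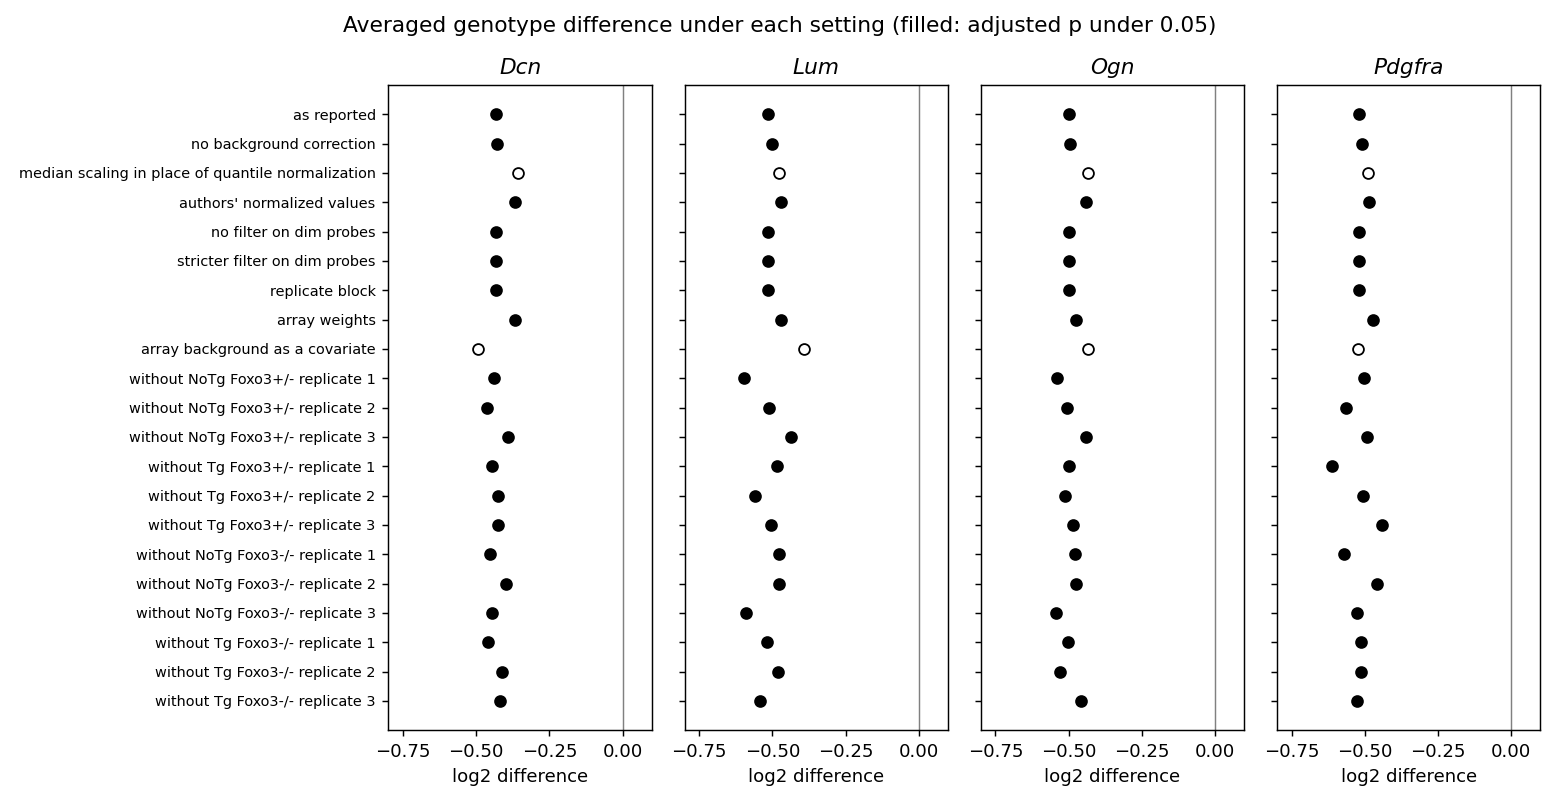
Averaged log2 difference between Foxo3-/- and Foxo3+/- ovaries of Dcn, Lum, Ogn and Pdgfra under each processing setting and with each array left out (points; filled where the adjusted p was under 0.05). All points lie below 0, and the open points are those of median scaling and of array background as a covariate.

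Other probes of the same genes gave further measurements of the same arrays. Averaged over transgene states, 8 of the 18 tested probes fell and 0 rose, where 4.22% and 4.13% of all tested probes did. That even balance over all probes, 949 lower and 929 higher, depended on the scaling, since 367 were lower and 965 higher with the authors' values, and 202 lower and 455 higher under median scaling. All 3 tested probes of Ogn fell, the 2 dimmer ones by 0.70 (adjusted p = 0.0207) and 0.81 (adjusted p = 0.0310). The first of these did not pass when Tg Foxo3+/- replicate 3 (adjusted p = 0.0513) or Tg Foxo3-/- replicate 3 (0.0590) was left out. The other did not pass in 6 of the 12 fits that left out 1 array (adjusted p = 0.0611 to 0.0811), namely those without Tg Foxo3+/- replicate 2 or 3, NoTg Foxo3-/- replicate 1 or 2, or Tg Foxo3-/- replicate 1 or 3. Both Lum probes fell, the dimmer by 0.73 (adjusted p = 0.00187). Of the 4 Dcn probes 2 fell, and the 2 dimmest stood at -0.38 and -0.39 (adjusted p = 0.181 and 0.213). Of the 18 probes, 1 fell under median scaling (the dimmer Lum probe), 5 with the authors' values, 0 with array background as a covariate and 6 to 9 with 1 array left out. The representative Dcn probe followed its second brightest closely over the 12 arrays (r = 0.827) and the dimmer ones loosely (r = 0.453 and 0.489), as a description across arrays that share normalization.

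Sparc probes disagreed. The second brightest stood at 0.12 (adjusted p = 0.480) and the dimmest at -0.55 (adjusted p = 0.111), and neither followed the brightest over the 12 arrays (r = -0.058 and 0.060). The second tested Fn1 probe was detected on 10 of 12 arrays and stood at 0.06 (adjusted p = 0.868). A further 2 Fn1 probes and 1 Pdgfra probe were detected on no array and were not tested.

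**Figure D4:**
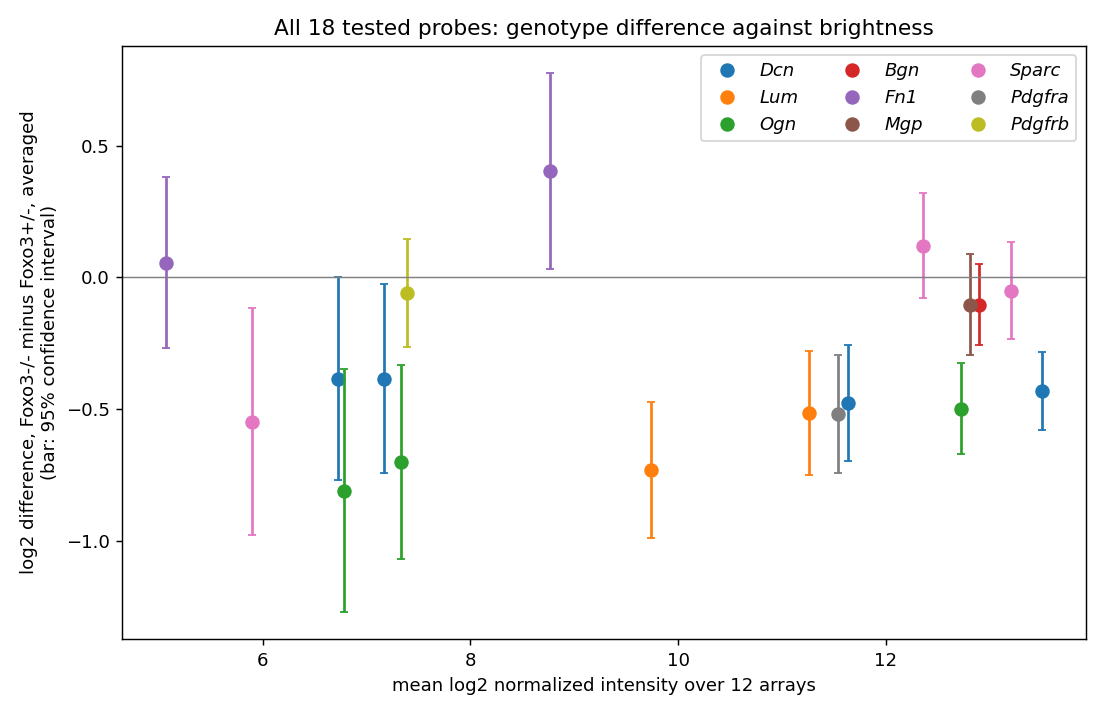
Averaged log2 difference between Foxo3-/- and Foxo3+/- ovaries of all 18 tested probes (y axis; bars are 95% confidence intervals) against mean log2 normalized intensity over 12 arrays (x axis). Probes of Ogn, Lum and Dcn lie between -0.81 and -0.38 at every brightness, whereas the 3 Sparc probes lie from -0.55 to 0.12.

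Raw intensity, before any correction, shows how far these separations rest on normalization. For Dcn it was 11556, 11208 and 16440 in NoTg Foxo3+/- and 11615, 10082 and 11886 in NoTg Foxo3-/- ovaries, which overlap. With the transgene it was 10989, 13800 and 14896 in Foxo3+/- and 11720, 9281 and 8224 in Foxo3-/- ovaries, which overlap as well. Raw intensities of Lum, Ogn and Pdgfra overlapped between genotypes without the transgene and did not overlap with it. In the authors' normalized values Dcn separated the genotypes in both transgene states, and Lum, Ogn and Pdgfra only with the transgene.

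A ratio of 2 probes within an array does not depend on how arrays are scaled. For Dcn over Bgn, formed from raw intensity minus array background, the log2 ratio was 0.46 ± 0.12 (SD, n = 6) in null arrays and 0.75 ± 0.14 in heterozygous arrays. It was 1 of 12 such ratios, of Dcn, Lum, Ogn and Pdgfra over Bgn, Mgp and Sparc. All 12 had a lower mean in null arrays. Genotypes did not overlap over the 12 arrays in 3 of them, Dcn over Bgn included, in 5 without the transgene and in 11 with it. The pairs were chosen after the values had been seen, 1 gene of each having fallen and the other not. The sign of the differences follows from that choice and is a description only.

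The second question is whether the transgene moved these genes. None of the 9 genes was called in Foxo3+/- ovaries, where 37 of 12173 tested genes (0.304%) were, nor in Foxo3-/- ovaries, where 20 (0.164%) were. Differences of the representative probes ran from -0.06 (Dcn) to 0.35 (Fn1) in Foxo3+/- and from -0.14 (Fn1) to 0.17 (Lum) in Foxo3-/- ovaries, and the smallest adjusted p was 0.621 and 0.755. For Dcn the transgene difference was -0.06 ± 0.10 in Foxo3+/- (interval -0.26 to 0.15) and -0.05 ± 0.10 in Foxo3-/- ovaries. The dimmer probes of Ogn and Lum and the dimmest of Sparc lay below 0 in both genotypes without passing. In Foxo3+/- and Foxo3-/- ovaries, 1 dim Ogn probe stood at -0.70 and -0.69 (adjusted p = 0.293 and 0.291) and the other at -0.73 and -0.33 (0.427 and 0.790), whereas the brightest Ogn probe stood at 0.01 and 0.14. The dimmest Sparc probe stood at -0.66 and -0.60 (adjusted p = 0.448 and 0.489). The second brightest Sparc probe stood at -0.003 and 0.06, and the brightest at 0.07 and -0.09. The dimmer Lum probe stood at -0.24 and -0.385 (adjusted p = 0.708 and 0.440), opposite in sign to the brightest at 0.27 and 0.17. Dimmer Dcn probes stood at -0.11, 0.24 and 0.575 in Foxo3+/- and at -0.30, -0.33 and 0.06 in Foxo3-/- ovaries. Their smallest adjusted p was 0.468 and 0.492. No probe on the array was called for the interaction by limma (0 of 22511, 0%, with 952 at an unadjusted p under 0.05), and among the 9 genes the interaction ran from -0.49 (Fn1) to 0.17 (Mgp). A genotype difference that passed in 1 transgene state and not in the other is therefore not shown to differ between them.

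The order of the 4 groups followed genotype for the genes that fell, which their choice by the averaged genotype difference largely fixes. Mean Dcn was highest in NoTg Foxo3+/- (13.75 ± 0.15, SD, n = 3), then Tg Foxo3+/- (13.69 ± 0.05), NoTg Foxo3-/- (13.31 ± 0.12) and Tg Foxo3-/- (13.26 ± 0.10), the first and last pairs lying within their spread. Ogn stood at 12.98 ± 0.06 in Tg Foxo3+/-, 12.97 ± 0.20 in NoTg Foxo3+/-, 12.55 ± 0.15 in Tg Foxo3-/- and 12.41 ± 0.16 in NoTg Foxo3-/- ovaries. Lum and Pdgfra were highest in Tg Foxo3+/- (11.65 ± 0.16 and 11.84 ± 0.34), and their 2 heterozygous means differed by 0.27 and 0.07, which passed no test. The dimmer Lum probe was instead highest in NoTg Foxo3+/- (10.23 ± 0.40), above Tg Foxo3+/- (9.99 ± 0.07). Both dimmer Ogn probes were also highest in NoTg Foxo3+/- (8.03 ± 0.71 and 7.55 ± 0.82). In Tg Foxo3+/- they stood at 7.34 ± 0.12 and 6.82 ± 0.34, and in NoTg Foxo3-/- at 7.33 ± 0.13 and 6.54 ± 0.36. The 2 dimmest Dcn probes were highest in Tg Foxo3+/- (7.48 ± 0.14 and 7.20 ± 0.17).

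Over the 12 arrays the 9 genes did not move as 1 block. Of 36 pairs, 27 correlated above 0 (median r = 0.205), and with group means removed 21 did (median r = 0.069). The pairs of Dcn with Pdgfra (r = 0.881), Dcn with Ogn (0.869) and Lum with Ogn (0.869) were closest. Fn1 ran against Dcn (r = -0.622) and with Sparc (r = 0.618). With group means removed, Lum and Ogn (0.665), Ogn and Mgp (0.694), Pdgfra and Pdgfrb (0.748) and Fn1 and Sparc (0.825) still moved together, the last with NoTg Foxo3-/- replicate 2 high for both. Pairs among the genes that fell were weaker then, at 0.611 for Dcn with Pdgfra, 0.437 for Dcn with Ogn and 0.371 for Dcn with Lum. Ogn with Pdgfra stood at 0.181 and Lum with Pdgfra at -0.014, against 0.738 and 0.608 before. These correlations describe 12 arrays that share normalization and group differences. The genes outside the list whose values most resembled the mean of the 9, out of 12164, were Zfp623 (r = 0.944), Gpr143 (0.925), Map3k1 (0.922), Kdm3a (0.915), Mfsd1 (0.913), Ppic (0.909), Kcnab1 (0.904) and Ndrg1 (0.892), each over 12 arrays.

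In the RefSeq order of genes of assembly GRCm38.p6, Dcn and Lum are direct neighbours on chromosome 10, followed by the family members Kera and Epyc, and Ogn lies beside Omd and near Aspn on chromosome 13. Foxo3 is also on chromosome 10, and Ogn and Pdgfra, on chromosomes 13 and 5, are not. Whether position relative to Foxo3 bears on any of these values was not tested. Of these neighbours Kera, Epyc and Aspn did not pass the detection filter. Omd, which encodes osteomodulin, stood at -0.88 without the transgene (adjusted p = 0.0871), at -0.04 with it (adjusted p = 0.962) and at -0.46 averaged (adjusted p = 0.103).

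RefSeq promoter sequences were at hand for 5 of the 10 genes. The 250 bases before the transcript start that the RefSeq table uses are shown for Ogn and Pdgfra, which fell, and for Bgn and Sparc, which did not pass the test, so that the regions can be read beside their values. Those of Ogn (chr13:49607765-49608014, plus strand), Pdgfra (chr5:75152001-75152250, plus strand), Bgn (chrX:73483351-73483600, plus strand) and Sparc (chr11:55420081-55420330, minus strand) are given 5′ to 3′ on the gene's strand, build GRCm38.p6. For Pdgfra that start lies inside the annotated gene, downstream of its first base, so the window shown is not the region before the gene. Capitals mark matches, on either strand, to any of 4 motifs, the FOXO core GTAAACA, the AP-1 site TGANTCA, the TATA box TATAAA and the GC box GGGCGG.
Ogn promoter: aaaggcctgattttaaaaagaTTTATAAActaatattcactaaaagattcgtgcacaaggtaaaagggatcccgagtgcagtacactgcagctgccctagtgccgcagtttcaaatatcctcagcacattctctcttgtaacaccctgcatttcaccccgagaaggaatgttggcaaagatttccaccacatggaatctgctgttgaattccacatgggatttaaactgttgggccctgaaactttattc
Pdgfra promoter: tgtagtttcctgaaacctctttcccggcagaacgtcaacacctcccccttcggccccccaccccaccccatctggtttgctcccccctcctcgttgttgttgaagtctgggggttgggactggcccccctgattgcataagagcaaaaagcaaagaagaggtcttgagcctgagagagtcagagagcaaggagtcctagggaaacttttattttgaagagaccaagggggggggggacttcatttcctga
Bgn promoter: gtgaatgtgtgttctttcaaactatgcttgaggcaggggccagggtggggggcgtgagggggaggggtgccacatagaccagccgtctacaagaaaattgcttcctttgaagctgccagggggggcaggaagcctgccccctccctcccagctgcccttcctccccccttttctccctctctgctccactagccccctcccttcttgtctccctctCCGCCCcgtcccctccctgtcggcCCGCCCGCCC
Sparc promoter: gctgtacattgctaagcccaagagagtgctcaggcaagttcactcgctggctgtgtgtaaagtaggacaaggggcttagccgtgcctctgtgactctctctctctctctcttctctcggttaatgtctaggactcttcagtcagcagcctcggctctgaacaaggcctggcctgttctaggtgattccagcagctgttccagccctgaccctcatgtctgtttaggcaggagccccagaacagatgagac
The Ogn region held TATAAA on both strands in 1 overlapping stretch, 229 to 222 bases before the start, a motif found in 12.4% of 32851 such regions. The Bgn region held 3 matches to GGGCGG on its opposite strand, the last 2 overlapping, a motif found in 32.7%. GTAAACA, in 3.17% of regions, and TGANTCA, in 6.75%, were in none of the 4, and Pdgfra and Sparc held no match to any motif. GC content was 42% for Ogn, 54.4% for Pdgfra, 54% for Sparc and 64.4% for Bgn. A match is a description of letters in this window only.

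Genes of the same families were taken from fixed lists. Beside their counts, 5.5% of the 12173 tested genes fell averaged and 4.48% rose, and 0.698% fell without the transgene and 0.887% with it. A call of 1 gene in a list was not read as a result about that list. Of 15 small leucine-rich proteoglycan genes 9 were tested, and averaged over transgene states 3 fell, all of them members described above (list median -0.34, against -0.01 over all tested genes). Of the 5 that are not members 0 were called and 4 lay below 0. Ecm2, a matrix protein gene of this family's repeat type, stood closest to the threshold at -0.34 (adjusted p = 0.0548).

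Of 21 fibrillin microfibril and elastic fibre genes 14 were tested, and 3 fell averaged, though 0 within either transgene state (list median -0.04). Ltbp1, which encodes a latent TGF-beta binding protein, fell by 0.54 ± 0.10 (adjusted p = 0.00375), its relative Ltbp4 by 0.33 ± 0.07 (adjusted p = 0.00899), and the lysyl oxidase-like gene Loxl1, which cross-links elastin, by 0.38 ± 0.09 (adjusted p = 0.0207). For all 3, the 6 null arrays lay below the 6 heterozygous arrays, as they did for 2.46% of all tested genes. Ltbp3 stood at -0.20 (adjusted p = 0.0884).

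Of 7 PDGF ligand and receptor genes 6 were tested and Pdgfra alone fell (list median -0.22). The receptor-like gene Pdgfrl stood at -0.39 (adjusted p = 0.0592), and the ligand genes Pdgfa and Pdgfc at -0.23 and -0.22 (adjusted p = 0.164 and 0.303). Of 9 genes of fibronectin and its integrin receptors 6 were tested and 0 were called, with the integrin beta 1 subunit gene Itgb1 at -0.28 (adjusted p = 0.126), Itga5 at -0.16 and Itgb5 at -0.18. Of 19 matricellular genes 14 were tested and 1 fell, Smoc1, a calcium-binding relative of Sparc (log2 -0.32 averaged, adjusted p = 0.0307; -0.52 with the transgene, adjusted p = 0.0340; -0.12 without it, adjusted p = 0.715). Spock2 and Spock3 stood at -0.33 and -0.32, and Tnc, which encodes tenascin C, at 0.33 (adjusted p = 0.0543, 0.132 and 0.130). Of 7 matrix Gla and mineralization genes 5 were tested and 0 were called.

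Markers of other cells are set beside these genes, with the same averaged shares of 5.5% fallen and 4.48% risen over all tested genes. Of 10 further stroma and fibroblast markers, all detected, 5 lay below 0 averaged (list median 0.03). Col3a1 (-0.73, adjusted p = 0.0499) and Thy1 (-0.30, adjusted p = 0.0492) fell averaged, while Col1a1 stood at -0.04 and Col1a2 at 0.21 without passing. The calls of Col3a1 and Thy1 were not followed through the other settings. The mean log2 level of the 10 markers was 7.89 to 8.13 in NoTg Foxo3+/-, 7.79 to 7.94 in NoTg Foxo3-/-, 7.79 to 7.97 in Tg Foxo3+/- and 7.68 to 7.92 in Tg Foxo3-/- ovaries, and thus overlapped between genotypes. Of 10 oocyte markers 4 rose averaged, and the mean level of the 10 did not overlap between genotypes. How often means of other gene lists separate was not computed, here or for the lists below. In ovaries lacking the transgene the oocyte mean spanned 10.71 to 10.77 in heterozygotes and 10.85 to 11.002 in nulls, and in transgenic ovaries 10.52 to 10.65 and 10.84 to 10.85. For the lists below, ranges are given as heterozygous against null, first in non-transgenic and then in transgenic ovaries. Of 6 matched theca and steroidogenic markers Cyp11a1 (-0.70, adjusted p = 0.0287) and Hsd3b1 (-0.73, adjusted p = 0.0166) fell, and all 6 lay below 0 averaged. Their mean levels were 7.40 to 8.11 against 7.14 to 7.50 and 7.57 to 8.24 against 7.19 to 7.86. Of 9 tested surface epithelium markers 3 fell (Krt8, Krt18 and Lgr5), and all 9 lay below 0 averaged. Their mean levels were 7.63 to 7.76 against 7.28 to 7.31 and 7.56 to 7.71 against 7.27 to 7.54, without overlap between genotypes. Epcam did not pass the detection filter. Of 7 tested pericyte and smooth muscle markers 1 fell, the intermediate filament gene Des (-0.84, adjusted p = 0.0183), and 5 of the 7 lay below 0 averaged. Their mean levels were 8.92 to 9.02 against 8.502 to 8.76 and 8.46 to 9.15 against 8.72 to 8.91.

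Endothelium (8 of 8 markers tested, mean level 8.15 to 8.35 against 8.25 to 8.32 and 8.23 to 8.36 against 8.12 to 8.36), granulosa (8 of 8 matched), macrophage (7 of 7 matched) and erythrocyte (4 of 4 matched) lists had 0 genes called in the averaged comparison. The macrophage mean was 6.17 to 6.45 against 6.11 to 6.37 and 6.33 to 6.35 against 6.09 to 6.17, thus without overlap in transgenic ovaries, where 6 of 7 markers lay below 0. The erythrocyte mean was 8.21 to 8.70 against 7.85 to 8.32 and 7.13 to 8.20 against 8.07 to 8.43, with a median marker difference of -0.39 without the transgene and 0.51 with it (4 of 4 above 0). The granulosa mean was 10.06 to 10.20 against 9.72 to 10.41 and 10.07 to 10.86 against 10.09 to 10.25. Of the 3 tested fat markers Lpl fell (-0.44, adjusted p = 0.00450), and Adipoq, Fabp4 and Cidec did not pass the detection filter. The part of any of these cell types in the differences of Dcn, Lum, Ogn and Pdgfra was not tested.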

How the data were processed

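The authors deposited a non-normalized raw intensity per probe and array, which its values show to be on a linear scale with no background subtracted. The deposited detection p-value beside it, named in the file headers, was read as a test against negative control beads. Total RNA was amplified to biotin-labelled cRNA, per the labels' protocols. A table of intensity normalized by the authors, by a method not given in the sources used here, served as an alternative after log2. The number of columns of other samples was 0.

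Raw intensity was background-corrected by the normal-exponential model from detection p-values (offset 16), quantile normalized and taken to log2 with limma 3.58.1 in R 4.3.3. A probe was tested if 3 or more arrays gave it a detection p-value below 0.05, which held for 22511 of 45281 and gave 12173 genes by brightest probe. A group-mean model on all 12 arrays was fitted with lmFit and eBayes with intensity trend, two-sided, adjusted by Benjamini-Hochberg over all tested probes, in 6 comparisons. The fit was also run on simulated data with independent noise on each probe and array. Those data lack the background differences between groups, so that run does not bear on whether the calls above hold. Of the probes with 1 symbol (34885), 34807 matched RefSeq by gene identifier. The array's build is not stated, so RefSeq (GRCm38.p6) served for names, gene order and promoter sequences only. The labels name no batch and do not tie samples to separate animals, so the p-values reflect sample-to-sample spread that could be technical. The number of arrays limits precision. Titles carry replicate numbers, which the labels do not say mark pairs. Between the Foxo3 genotypes without the transgene, deviations from group means correlated at 0.172 to 0.195 in all 3 same-numbered pairs. In the 6 others they correlated at -0.154 to -0.038. In each of the other 3 comparisons of 2 groups, 1 of 3 same-numbered pairs was over 0.1. Differently numbered pairs there reached 0.105 for genotype with the transgene, 0.217 for the transgene in Foxo3+/- and 0.212 in Foxo3-/-.

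Members and lists were chosen with earlier results of these data known. Named are every member probe, the 4 genes of each family list with the smallest p in the averaged comparison plus any called, and the 8 genes most like the members' mean, predicted genes skipped. Fits were repeated with median scaling, without background correction, on the authors' values, without the filter, with a stricter one (6 or more arrays below 0.01), with a replicate block, array weights or array background as a covariate, on only the compared groups, and with each array left out.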

Additional observations from a re-analysis of the deposited data

How the results depend on the processing

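Averaged over transgene states, 4 members (Dcn, Lum, Ogn, Pdgfra) fell as reported and in each of the 12 fits that left out 1 array (4 to 4), and 0 under median scaling or array background as a covariate. Under those, Lum stood at -0.48 and -0.39 (adjusted p = 0.1002 and 0.347), Ogn at -0.43 and -0.43 (0.0860 and 0.160) and Pdgfra at -0.49 and -0.52 (0.0920 and 0.197). Without the transgene 2 members fell as reported, 0 under median scaling, the authors' values, no filter, the covariate or only the compared groups, 1 with array weights, and 0 to 2 leaving out 1 array, with 0 without NoTg Foxo3+/- replicate 2 or 3, NoTg Foxo3-/- replicate 1 or 2, or Tg Foxo3-/- replicate 1. With the transgene 2 fell as reported, 0 under median scaling, the authors' values, no filter or the covariate, 4 with array weights or only the compared groups, and 0 to 4 leaving out 1 array, with 0 without Tg Foxo3+/- replicate 2 or 3 or any Tg Foxo3-/- replicate.

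Calls over all probes without the transgene were 205, and 62 under median scaling, 90 with no filter, 746 with array weights, 16 with the covariate, 47 with only the compared groups and 35 (without NoTg Foxo3+/- replicate 2) to 343 leaving out 1 array. With the transgene they were 491, then 54, 283, 2698, 17, 774 and 124 (without Tg Foxo3-/- replicate 1) to 765 in the same order, and 224 with the authors' values. For the transgene in Foxo3+/- they were 82, then 0, 24, 925, 0, 0 and 0 to 127, and 0 with the authors' values; in Foxo3-/- they were 43, and 0 under median scaling, 366 with the authors' values, 22 with no filter, 80 with the stricter filter, 512 with array weights, 0 with the covariate and 0 to 193. Averaged they were 1878, and 657 under median scaling, 3404 with array weights, 119 with the covariate and 1049 to 2139. The interaction gave 0 in every fit run. Over all groups, 6 of 18 same-numbered pairs correlated over 0.1 (range -0.179 to 0.264), among them all 3 of the comparison without the transgene. For that comparison a replicate block on only the compared groups, chosen after seeing the data, gave 270 calls and 2 members fallen, with Dcn at an adjusted p of 0.0324, Ogn at 0.0158, Lum at 0.0594 and Pdgfra at 0.0683, and thus changed no member's call. On all 12 arrays the replicate block gave 245, 509, 21, 36, 0 and 1930 calls in the order without the transgene, with it, transgene in Foxo3+/-, transgene in Foxo3-/-, interaction and averaged, against 205, 491, 82, 43, 0 and 1878, and 3 members fallen with the transgene against 2.

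The sign of Fn1 with the transgene turned without Tg Foxo3+/- replicate 1 (-0.023; 0.286 without replicate 3, the other extreme), and that of Sparc averaged turned under median scaling (0.025), with the authors' values (0.013) and without NoTg Foxo3-/- replicate 1 (0.007; -0.14 without replicate 2, the other extreme). The cause of these changes was not tested. As a measure of signal over background, each array's 90th percentile of raw intensity lay 8.94-fold to 14.9-fold above its background.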
